A study of Homo sapiens and Mus musculus with 10 samples.

Results

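Chromosomes 9 and 22 carry ABL1 and BCR, the genes that are joined in the Philadelphia translocation of chronic myeloid leukaemia. The regions described here are all ATAC-seq peaks on these 2 chromosomes in 8 human libraries, 41419 of 687619 autosomal peaks, counted in 1 Mb bins as a share of the autosomal peaks of each library. They were chosen by position alone. The stretch 9:20692855-26797043, where neither K562 library had a peak, was kept apart, because it holds none of the K562 peaks by its definition. K562 was compared with the other human lines.

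In ATAC-seq, the transposase Tn5 cuts open chromatin and adds sequencing adapters there, and peaks are the places where such cuts pile up. The study profiled untreated cultures of 5 cell lines with 2 libraries per line, and the 2 mouse stem cell libraries were not used here. GM12878 is a B-lymphoblastoid line, HEK293T derives from embryonic kidney and expresses large T antigen of SV40, HFF1 is a line of foreskin fibroblasts, and K562 is an erythroleukaemia line derived from chronic myeloid leukaemia. All libraries came from thawed cells whose nuclei were tagmented and sorted by a DNA dye. No label says that the libraries of a line came from separate cultures, so p-values measure only the spread between these libraries, which may be technical.

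As background, the translocation joins the first part of BCR to ABL1 from its exon 2 onward, so that the ABL1 tyrosine kinase is permanently active and signals through adaptors such as CRKL. Transcription of the fusion starts at the BCR promoter. K562 is known to join BCR exon 14 to ABL1 exon 2, to hold the fused segment in many copies on rearranged chromosomes, and to carry a further fusion of NUP214 on chromosome 9 with XKR3 on chromosome 22. All coordinates are GRCh38. BCR lies at 22:23179704-23318037 with exon 14 at 22:23290339-23290413, and ABL1 lies at 9:130713043-130887675 with exon 2 at 9:130854064-130854237.

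Depth and peak number differed between lines. The lists held 98647 and 100631 autosomal peaks in GM12878, 50482 and 50183 in HEK293T, 124544 and 117703 in HFF1, and 76251 and 69178 in K562. The lowest local background of a library, which is proportional to its depth, was 0.465 to 0.466 reads per window in HEK293T and 1.71 to 2.43 in the other 6 libraries. Peak names start with 1 prefix in both GM12878 libraries and with others in the remaining lines, so whatever that prefix records cannot be told apart from GM12878. In the remaining lines the prefix followed the replicate number, the same for every replicate 1 and another for every replicate 2. The labelled lines held peaks at the promoters of their markers: GATA1 and TAL1 in K562 alone, CD79A and MS4A1 in GM12878 alone, COL3A1 in HFF1 alone, and PAX2 and LHX1 in HEK293T alone.

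The 6 regions shown first lie just inside and just outside the stretches where K562 stood apart. Each sequence is 151 bases of the GRCh38 plus strand, 5′ to 3′, centred on the median summit of the 8 libraries, at a region with a peak in all of them. Capitals mark matches, on either strand, to a core of the CTCF motif (CCA, any 2 bases, AG, any 2 bases, GG), chosen after the sequences were seen, and to GGGCGG, the GC box, and the motifs may overlap. The first, at chr22:23174021-23174171, lies upstream of BCR in no annotated gene. The second, at chr22:23281917-23282067, lies in intron 8 of BCR. The third, at chr22:23385995-23386145, is the first such region after BCR.
Upstream of BCR: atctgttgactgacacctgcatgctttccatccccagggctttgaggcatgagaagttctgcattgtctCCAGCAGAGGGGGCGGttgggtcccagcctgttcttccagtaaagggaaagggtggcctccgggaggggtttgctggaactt
BCR intron 8: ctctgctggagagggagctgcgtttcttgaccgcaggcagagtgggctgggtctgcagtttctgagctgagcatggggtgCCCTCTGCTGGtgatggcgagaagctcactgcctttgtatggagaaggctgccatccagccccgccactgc
First region after BCR: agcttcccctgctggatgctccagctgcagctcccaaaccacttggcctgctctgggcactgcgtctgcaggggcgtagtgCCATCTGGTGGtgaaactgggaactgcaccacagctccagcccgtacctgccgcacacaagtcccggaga

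On chromosome 9, the region at chr9:130866510-130866660 lies in intron 4 of ABL1, downstream of exon 2. The region at chr9:130998407-130998557 lies between ABL1 and NUP214 in no annotated gene. The region at chr9:131336338-131336488 lies in PLPP7, beyond FAM78A.
ABL1 intron 4: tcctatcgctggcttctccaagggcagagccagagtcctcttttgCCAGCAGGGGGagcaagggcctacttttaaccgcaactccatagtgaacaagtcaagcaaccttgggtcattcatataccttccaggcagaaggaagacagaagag
Between ABL1 and NUP214: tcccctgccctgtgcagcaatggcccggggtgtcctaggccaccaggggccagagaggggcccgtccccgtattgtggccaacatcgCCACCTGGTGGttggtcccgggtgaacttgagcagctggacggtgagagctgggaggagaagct
In PLPP7: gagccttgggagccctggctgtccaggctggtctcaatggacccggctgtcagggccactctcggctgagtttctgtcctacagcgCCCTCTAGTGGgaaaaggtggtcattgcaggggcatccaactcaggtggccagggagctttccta

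Each of these 6 windows held the CTCF core letters, both where K562 was higher and where it was not. A further window, chr9:130834930-130835080 at an ABL1 promoter, was searched too, is not shown, and did not hold these letters. Over all 1163 regions of chromosomes 9 and 22 with a peak in every library, 21.3% of windows of the same length held them, against 20 of 74 windows between DGCR2 and BCR exon 14 and 57 of 322 windows after it. GGGCGG was in 37 of those 74 windows and in 49.1% of all 1163. AGATAA, a form of the GATA motif, was in 1 of the 74 windows and in 1.89% of all, and TGANTCA, the AP-1 motif, in 0 of the 74 and in 2.67% of all. The median GC content was 67.5% in the 74 windows and 66.2% in all. These letters are matches and not measured binding.

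The share of a library's peaks that fell on a chromosome was compared first. K562 had a share of 3.79% ± 0.00369 on chromosome 9 (SD, n = 2), within the range of the other lines, from 3.42% ± 0.00455 in HEK293T to 4.60% ± 0.0149 in HFF1. Its share on chromosome 22 was 2.06% ± 0.0399, beside 2.02% ± 0.00563 in GM12878, 1.83% ± 0.00994 in HFF1 and 1.53% ± 0.00362 in HEK293T. Both K562 libraries lay above the other 6 on chromosome 22, where the mean difference was 0.273 percentage points. On chromosome 9 the largest difference between 2 of the other lines, HFF1 and HEK293T, was larger than that of any line from K562.

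The segments on the 2 sides of each gene differed from one another. Before BCR on chromosome 22, K562 held 0.625% ± 0.0109 of its peaks (SD, n = 2), against 0.378% ± 0.00177 in GM12878, 0.381% ± 0.0100 in HEK293T and 0.266% ± 0.0104 in HFF1. This is 1.83 times the mean of the other 6 libraries, and no library overlapped. After BCR, K562 held 1.42% ± 0.0295, inside the range of the other lines from 1.14% to 1.63%. After ABL1 on chromosome 9, K562 held 0.624% ± 0.0196 against 0.347% to 0.522% in the other line means, 1.40 times their mean, again without overlap. Before ABL1, outside the 9p stretch, it held 3.14% ± 0.0162, between HEK293T at 2.98% and GM12878 at 3.51%.

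Among all 28 ways of choosing 2 of 8 libraries, the exact two-sided permutation test gave p = 0.0357 for the segment before BCR and for the bin of BCR with 5 bins on each side, the smallest p this design allows. The same exact permutation test gave p = 0.0714 for the segment after ABL1 and for the bin of ABL1 with 5 bins on each side. After Benjamini-Hochberg adjustment over 9 segments the smallest adjusted p was 0.129 (exact permutation test), so no segment passed 0.05.

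**Figure D1:**
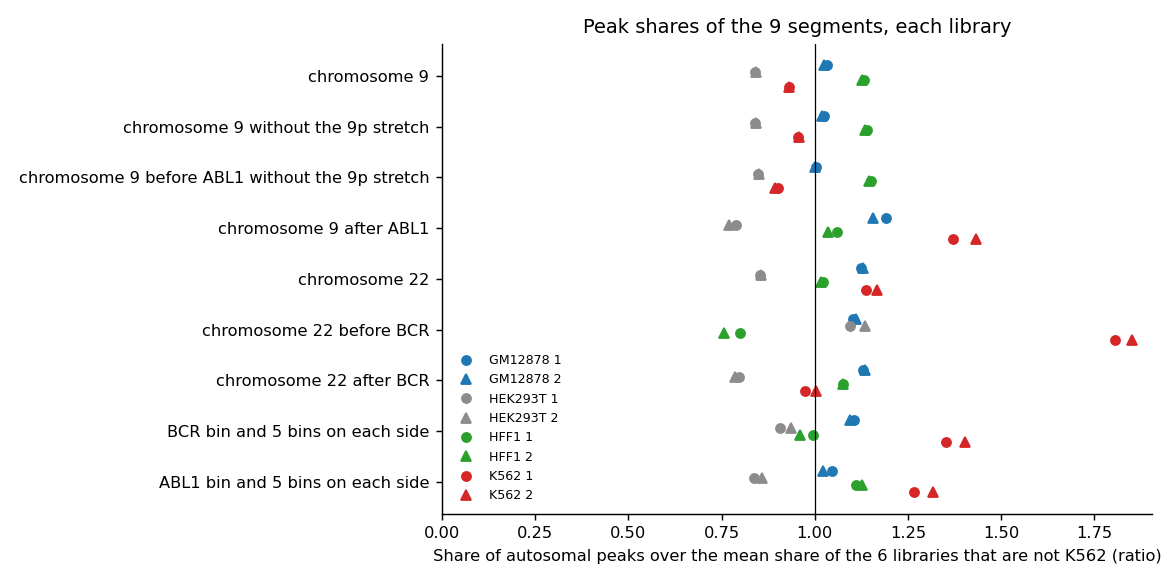
Share of autosomal peaks in each of the 9 segments for each of the 8 libraries, divided by the mean share of the 6 libraries that are not K562 (x axis, ratio, circles and triangles are the 2 libraries of a line). K562 lies furthest right before BCR, at 1.83 times the others on average, and inside the other libraries after BCR.

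In single 1 Mb bins, peak shares in K562 were high from bin 22:19 to bin 22:22, the last before that of BCR. They rose little in the bin of BCR and fell just after it. The limma fit over 2513 autosomal bins called 37.6% of all bins higher and 37.2% lower in K562 at an adjusted p under 0.05, so single calls are common between these lines. Of 34 bins on chromosome 22, 14 were called higher and 6 lower, and without K562 replicate 2 only 8 were called higher. Of 94 bins on chromosome 9 outside the 9p stretch, 28 were called higher and 36 lower. Both K562 libraries lay above all 6 others in 20.6% of all autosomal bins and below them in 22.7%, and did so in 7 and 3 of the 34 bins on chromosome 22 and in 19 and 22 of the 94 on chromosome 9. Chromosome 22 thus had a share of called-higher bins of 41.2% and of called-lower bins of 17.6%, and chromosome 9 of 29.8% and 38.3%.

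Bin 22:22 held VPREB1, PRAME and the immunoglobulin lambda genes. Its peaks numbered 105 and 92 in K562, 81 and 88 in GM12878, 28 and 33 in HEK293T, and 38 and 31 in HFF1. Per 100000 autosomal peaks this is 135 in K562 and 57.9 in the mean of the other 3 lines, a log2 difference of 1.35 ± 0.08 (SE, limma adjusted p = 3.48e-08). GM12878, the B-cell line, was the nearest of the other lines but did not overlap K562. The immunoglobulin lambda genes alone, 22:22030934-22923034, held 94 and 82 peaks in K562 against 71 and 78 in GM12878. With this stretch left out, the share before BCR was still higher in K562, by 0.215 percentage points.

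The bins before it moved the same way. Bin 22:19, with DGCR2 and HIRA, had 92 and 91 peaks in K562 and 35 to 75 in the other libraries, a log2 difference of 1.03 ± 0.06. Bin 22:20, with CRKL, rose by 0.83 ± 0.06 and bin 22:21 by 0.96 ± 0.07, with limma adjusted p = 2.89e-07 and 5.07e-07. Both K562 libraries lay above all others in each of these bins when taken as shares. Bin 22:18, next in the direction of the centromere, had 19 and 16 peaks in K562, and its difference of 0.14 ± 0.11 was not called. It was called higher without GM12878, at 0.39, and lower by covered bases, at -0.18 (limma adjusted p = 0.0193 and 0.0373).

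Bin 22:23 holds BCR itself and differed by only 0.23 ± 0.06 (limma adjusted p = 0.00344), with 56 and 56 peaks in K562. Per 100000 autosomal peaks, K562 had 73.4 and 81.0 and GM12878 74.0 and 68.6, so these lines overlapped. Without K562 replicate 2 the difference was 0.16 and was no longer called (limma adjusted p = 0.0685). Bins 22:24 and 22:25, after it, fell by 0.56 ± 0.07 and 0.44 ± 0.08, and bins 22:26 to 22:28 were not called. Some of these were called lower under other settings. Bin 22:28 differed by -0.87 among the 20000 strongest peaks, by -0.20 by covered bases or without HEK293T replicate 1, and by -0.46 without HEK293T (limma adjusted p = 0.00176, 0.0133, 0.0227 and 1.72e-04). Bin 22:26 differed by -0.23 without HEK293T and bin 22:27 by -0.54 without GM12878 (limma adjusted p = 0.0148 and 0.00807). The fall in bin 22:25 was not called without GM12878, whose bin held the most peaks.

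**Figure D2:**
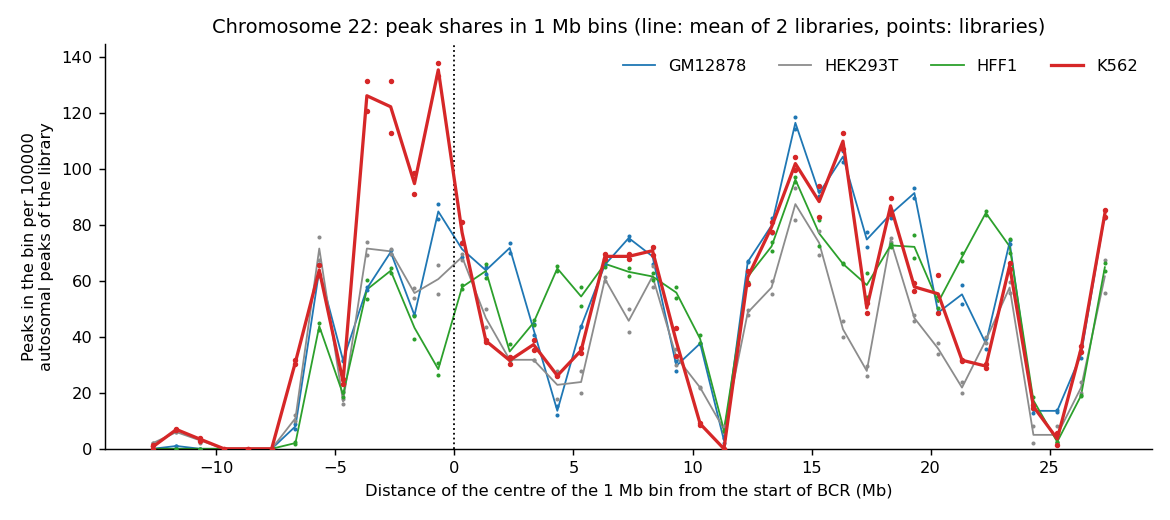
Peaks per 100000 autosomal peaks (y axis) in each 1 Mb bin of chromosome 22 against the distance of the bin's centre from the start of BCR (x axis, Mb), with the mean of each line as a line and its 2 libraries as points. K562 stands above the other lines in the 4 bins before BCR, with 135 in the nearest, and inside them over most of the chromosome after it.

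The largest rise on the 2 chromosomes was in bin 22:16, near the centromere. It held 23 and 22 peaks in K562 against 2 to 9 in the other libraries, a difference of 2.34 ± 0.18 (limma adjusted p = 3.72e-07). The protein-coding genes CCT8L2 and XKR3 start in this bin. In the 825 kb on the centromere side of the XKR3 start, each K562 library had 20 peaks and the others 1 to 5. In the remaining 175 kb of the bin K562 had 3 and 2 and the others 1 to 4. XKR3 is the partner of NUP214 in the further fusion named above.

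On chromosome 9, the rise around ABL1 was broader and lower. In the bin of ABL1, 9:130, K562 had 71 and 65 peaks, GM12878 72 and 69, HEK293T 26 and 27, and HFF1 85 and 85. As shares, K562 had 93.5 per 100000 and the other lines 64.6, a log2 difference of 0.54 ± 0.05 (limma adjusted p = 2.84e-06). Bins 9:127 to 9:133 were all called higher, with differences from 0.28 to 0.54, and both K562 libraries lay above all others in each of these 7 bins. The call in 9:131 was lost when each list was cut to its 20000 strongest peaks, and that in 9:132 without HEK293T. Bins 9:125, 9:126 and 9:134 were not called. Bin 9:134 was called lower by covered bases, at -0.18, without HEK293T, at -0.26, and without GM12878, at -0.20 (limma adjusted p = 0.00177, 0.00275 and 0.0247). Bin 9:125 was called lower without HEK293T, at -0.27, and higher by covered bases, at 0.22 (limma adjusted p = 0.00918 and 8.80e-04). Bin 9:135 rose by 1.15 ± 0.09, with 42 and 48 peaks against 13 to 36.

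**Figure D3:**
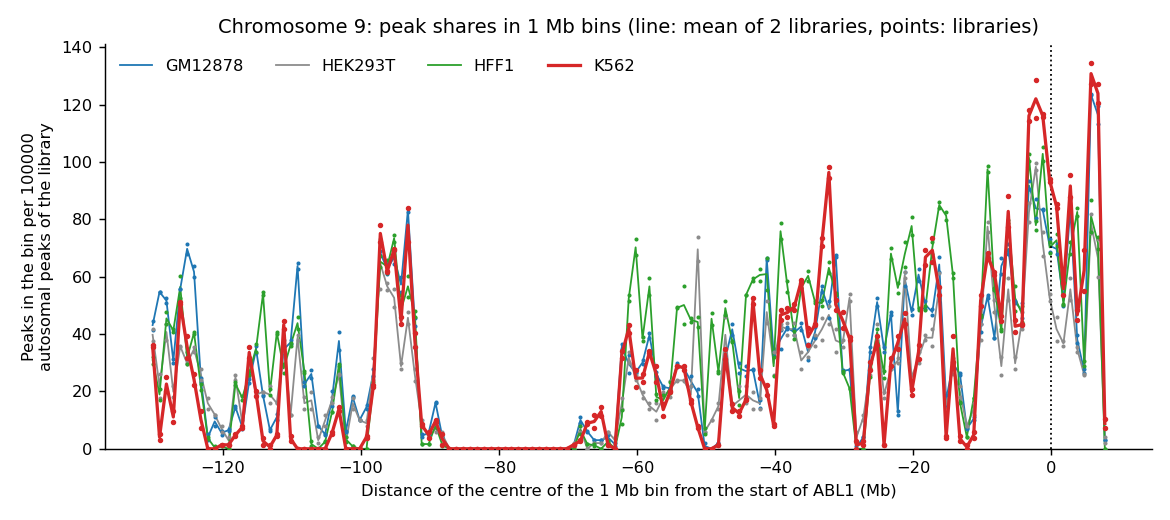
Peaks per 100000 autosomal peaks (y axis) in each 1 Mb bin of chromosome 9 against the distance of the bin's centre from the start of ABL1 (x axis, Mb), drawn as for chromosome 22. K562 is at or near 0 in several bins of the short arm, is mixed with the other lines over the long arm, and is highest in the 7 bins around ABL1.

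The largest falls on chromosome 9 lay far from ABL1. Bin 9:106, with the zinc finger gene ZNF462, had 1 and 1 peaks in K562 against 9 to 35, a log2 difference of -3.68 ± 0.13. Bins 9:16 and 9:17, with BNC2, a zinc finger gene, and with CNTLN and SH3GL2, had 0 to 3 peaks in K562 and differed by -3.14 ± 0.22 and -3.56 ± 0.30. Bin 9:29, with LINGO2, had none in K562, 1 in each HFF1 library, 9 and 7 in HEK293T and 18 in each GM12878 library. Bin 9:81, with TLE1, had none in K562 and none in GM12878, 5 in each HEK293T library and 59 and 51 in HFF1, so K562 did not stand apart there from the other blood line.

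In the 9p stretch of 6.10 Mb, the other 6 libraries had 46 to 144 peaks. By the definition of the stretch, none of its 25 protein-coding genes, which include the interferon alpha cluster, could have a promoter peak in K562. Of these genes, 6 (KLHL9, MTAP, CDKN2A, CDKN2B, DMRTA1 and ELAVL2) had one in all 6 other libraries. Without this stretch the share of chromosome 9 in K562 stayed at 3.79%, as the definition requires, and the mean of the others went from 4.07% to 3.96%.

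Signal was compared next at regions with a peak in all 8 libraries, a readout that the choice of bins did not use. The value is the pileup, the number of reads over the summit, recovered from the authors' fold and p-value and taken as log2 relative to the library's median over 20134 such autosomal regions. The limma fit called 25.8% of all regions higher and 22% lower in K562. On chromosome 9, 194 of 748 were higher and 149 lower, and on chromosome 22, 89 of 415 were higher and 154 lower. With K562 replicate 1 or 2 left out, chromosome 9 had 122 or 107 higher calls and 101 or 96 lower ones, and chromosome 22 had 82 or 79 higher and 91 or 102 lower. Both K562 libraries were above all others at 13.0% of all regions and below them at 11.9%. The counts were 98 and 83 on chromosome 9, and 77 and 85 on chromosome 22.

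The median of the shared regions of a segment gave the same contrast between the sides of BCR. Before BCR, over 91 regions, the median log2 pileup relative to the library was 0.88 and 0.99 in K562, 0.11 and 0.07 in GM12878, -0.26 in both HEK293T libraries, and 0.08 and 0.07 in HFF1. Both K562 libraries lay above all others, and their mean exceeded that of the other 6 by 0.97, 1.96-fold, at p = 0.0357 (exact permutation test, adjusted p = 0.161 over the 9 segments). After BCR, over 322 regions, K562 had -0.22 in both libraries, between HEK293T at -0.26 and the other lines, and the difference of -0.25 had p = 0.393 (exact permutation test). After ABL1, over 106 regions, K562 had 0.23 and 0.30, among GM12878 at 0.29 and 0.21.

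At the BCR promoter, 22:23180050-23181021, the pileup was 176 and 172 reads in K562, 82 and 79 in GM12878, 19 and 17 in HEK293T, and 74 and 58 in HFF1. K562 was higher than every other library, and the log2 difference was 1.67 ± 0.09, 3.18-fold (limma adjusted p = 2.78e-09). The region in BCR intron 8 had 127 and 119 reads in K562 against 11 to 79 elsewhere, a difference of 1.35 ± 0.12. The region upstream of BCR had 132 and 118 reads against 10 to 75, a difference of 1.67 ± 0.11.

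The first region after BCR went the other way. It had 26 and 23 reads in K562, 49 and 52 in GM12878, 12 and 14 in HEK293T, and 47 and 34 in HFF1. Relative to the library medians, both K562 libraries lay below all others, and the log2 difference from the mean of the 3 other lines was -0.54 ± 0.15 (limma adjusted p = 0.00794). The sign of the difference therefore changed between intron 8 of BCR and this region. Between exon 14 and the end of BCR neither K562 library had a peak, whereas the others had 1 to 4.

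All 74 shared regions from the DGCR2 promoter to BCR exon 14 can be set beside their neighbours, with limits that were chosen after their values were seen. In this stretch 73 of 74 were called higher and 73 lay above all other libraries, with a median difference of 1.14, 2.21-fold, and a range from -0.31 to 1.86. In the 19 regions before DGCR2 the median was 0.05 and 5 were called higher. In the 322 regions after exon 14 the median was -0.24, 11 were higher and 153 lower, and 83 lay below all others. The median over all autosomal shared regions was 0.03. The 1 exception in the stretch, at 22:20697345-20697842, had 39 and 34 reads in K562 against 15 to 60. Its difference of -0.31 ± 0.13 was not called, although relative to the library medians both K562 libraries lay below the others.

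At ABL1 the promoters and the body differed. The promoter of the longer transcript, 9:130712464-130713474, had 117 and 108 reads in K562, 149 and 158 in GM12878, 46 and 40 in HEK293T, and 109 and 102 in HFF1. K562 lay among the others, and the difference of 0.08 ± 0.07 was not called. The second promoter, 9:130834568-130835362, which precedes the exon 1 used in the MANE transcript, had 36 and 34 reads in K562 against 8 to 95, a difference of -0.29 ± 0.16 that was not called. Without HEK293T it was -0.66 and was called (limma adjusted p = 4.09e-06), and without HEK293T replicate 2 alone it was -0.40. By percentile rank of −log10 p the difference was -26.3 points and was called (limma adjusted p = 0.00295). Without GM12878 the log2 difference was 0.06.
ABL1 promoter: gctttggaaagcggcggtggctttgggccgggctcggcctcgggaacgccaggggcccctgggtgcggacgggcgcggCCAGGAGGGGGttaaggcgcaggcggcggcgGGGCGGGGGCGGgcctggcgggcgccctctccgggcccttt

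This is the 150 bases before the start of that transcript, chr9:130835104-130835253 on the plus strand, from the RefSeq promoter table for GRCh38.p14, shown because it lies closest before exon 2. Both ABL1 promoters precede that exon, so the fusion transcript starts at neither. Capitals mark 2 GC boxes, which adjoin, and a match to the CTCF core letters. Of 35116 promoters in that table, 36.8% held a GC box and 3.81% the CTCF core letters in the same 150 bases.

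Within ABL1 the signal changed between the second promoter and intron 4. Exon 2 lies between them and no shared region does, so the change cannot be placed before or after that exon. Peaks in ABL1 before exon 2 numbered 13.0 to 14.4 per 100000 in the K562 libraries and 3.96 to 11.9 in the others. From exon 2 onward they numbered 3.93 to 5.78 and 1.98 to 4.25, so the libraries overlapped. The region in intron 4 had 106 and 104 reads in K562, 31 and 28 in GM12878, 10 and 17 in HEK293T, and 45 and 32 in HFF1, a log2 difference of 1.84 ± 0.18 (limma adjusted p = 7.07e-07). It was 1 of 6 shared regions from exon 2 to the promoter of FAM78A, which all lay above the other libraries, with differences from 1.26 to 1.84 and a median of 1.54. NUP214, a nuclear pore gene, gave 2 of them, with 195 and 174 reads at its promoter against 21 to 113 and a difference of 1.37 ± 0.09. FAM78A had 153 and 132 reads against 13 to 68, a difference of 1.56 ± 0.12.

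The next region, at the promoter of PLPP7, had 37 and 33 reads in K562 against 13 to 55, and its difference of 0.17 ± 0.16 was not called. In the 1 Mb after FAM78A the median of 15 regions was -0.04, with 3 higher and 3 lower. In the 1 Mb before exon 2 the median of 12 regions was 0.16, with 5 higher and none lower, and 4 of these lay above all others. The largest of these 12 differences was 1.29, above the smallest, 1.26, of the 6 regions from exon 2 to FAM78A. The unbroken run of high regions thus began within ABL1 and ended between FAM78A and PLPP7. As for chromosome 22, these limits were read from the values and carry no test.

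**Figure D4:**
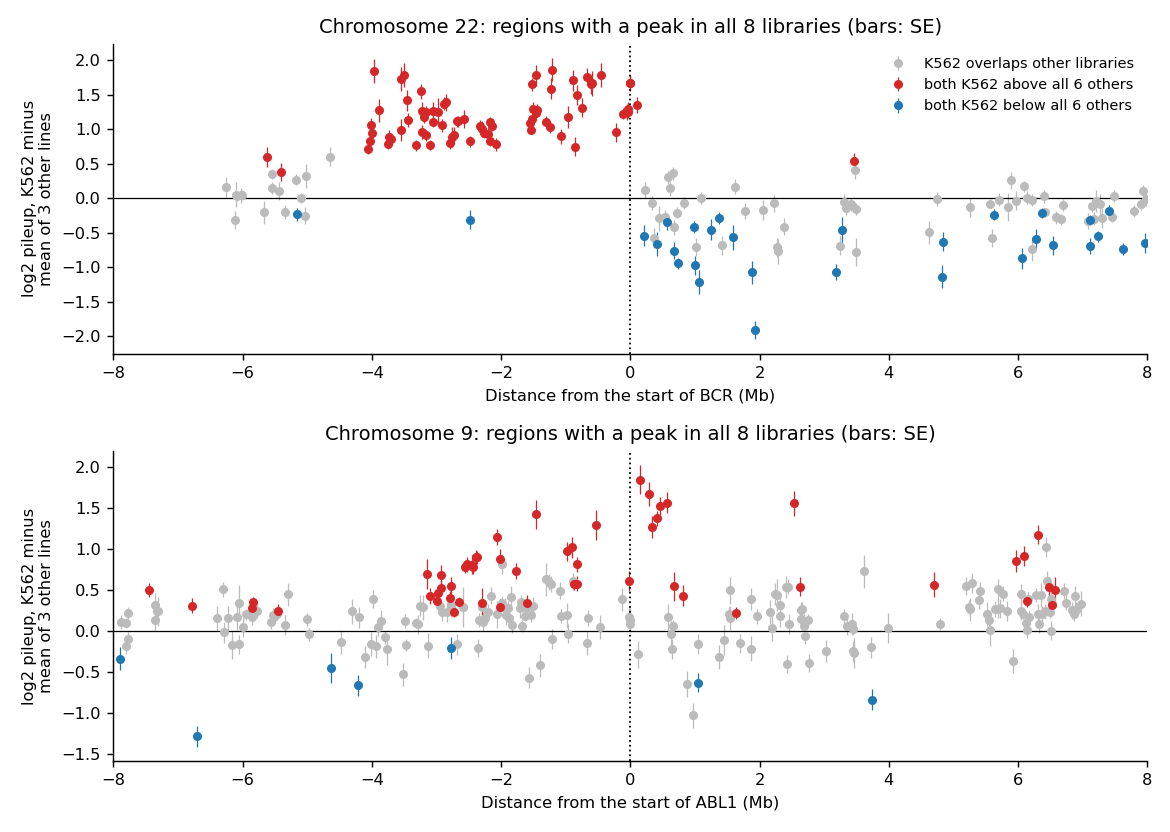
Log2 pileup in K562 minus the mean of the 3 other lines (y axis, bars are SE) at regions with a peak in all 8 libraries, against the distance from the start of BCR or ABL1 (x axis, Mb). Red points, where both K562 libraries lie above all 6 others, fill the 4 Mb before BCR and a short stretch after ABL1, and blue points, where both lie below, follow BCR.

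The local background at a peak, the reads per window that the peak caller took as its expected level there, moved with the pileup. It is not an independent measurement, because both were solved from the same deposited values. The labels do not say whether a control was used, so reads of the peak and its neighbours may be part of it. Over the 200 kb before BCR its median in K562 was 20.0 and 19.8 reads per window, 9.04 and 10.1 times the lowest of each library, whereas the other libraries had 2.03 to 3.39 times their lowest. In BCR up to the end of exon 14 the medians were 21.8 and 21.1 in K562. In the 200 kb after BCR they were 2.21 and 1.97, equal to the lowest of each library, below which no peak of it can lie. At the 74 shared regions before exon 14 the background differed by a median of 1.75 on the log2 scale, more than the pileup did, and at the 322 after it by -0.43.

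Along ABL1 the background of K562 rose in steps. Its median was 3.15 and 2.43 times the library's lowest in the 200 kb before ABL1, within the 1.82 to 4.57 of the other libraries. It was 5.29 and 5.21 times the lowest in ABL1 before exon 2, where the others reached at most 2.76, and 6.15 and 6.91 times from exon 2 onward. It was 11.6 and 11.9 times in the 200 kb after ABL1, and 2.15 and 1.86 times in the 200 kb after the FAM78A promoter. At the shared promoter regions themselves, the background differed by 0.01 on the log2 scale at the first and by 0.93 at the second, where the pileup was not called. Copies of the DNA were not measured in these libraries, and more DNA copies and more accessible chromatin per copy cannot be told apart from pileups and backgrounds. In the same way, a larger share of cells with an open site and a more open site in each cell cannot be told apart in bulk libraries.

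**Figure D5:**
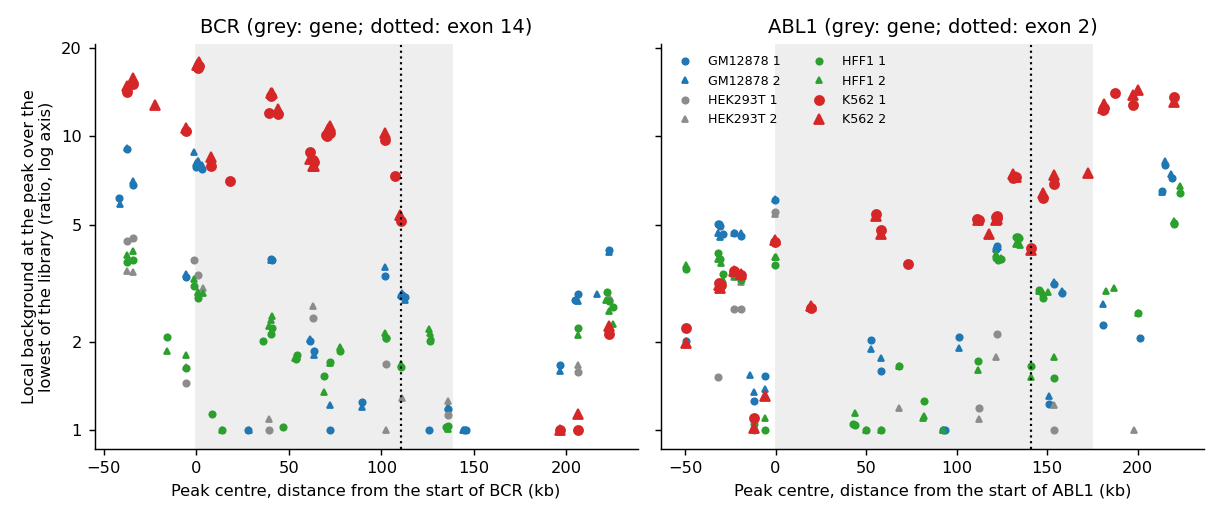
Local background at each peak divided by the lowest of its library (y axis, ratio, log axis) around BCR and ABL1, against the distance of the peak's centre from the gene's start (x axis, kb), for each of the 8 libraries. K562 falls to near 1 after BCR, with no peak in the rest of the gene after exon 14, and climbs along ABL1 to above 10 beyond its end.

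Genes near BCR were listed by position. The counts for each list stand beside the 25.8% higher and 22% lower among all shared regions. Of 19 genes, 12 had a promoter region shared by all libraries, of which 10 were higher, 1 was lower, and the median difference was 0.99. CRKL, the adaptor that BCR-ABL1 phosphorylates, had 186 and 189 reads in K562 and differed by 0.94 ± 0.07. GNAZ, a G protein subunit, differed by 1.22 ± 0.08. RAB36 and RSPH14 share 1 region, which differed by 1.25 ± 0.09. On the far side of BCR, SMARCB1, a subunit of the SWI/SNF remodeller, had 0.14 ± 0.11 and was not called, CHCHD10 and DERL3 rose by 0.30 ± 0.10 and 0.36 ± 0.10, and MIF, a cytokine, fell by 0.21 ± 0.08. At ZNF280A, each K562 library had a promoter peak and no other library did, and PRAME had one in K562, GM12878 and HEK293T and none in HFF1.

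Near ABL1, 8 of 15 genes had a shared promoter region, with 4 higher, none lower and a median of 0.28. The 4 were NUP214 and FAM78A, given above, UCK1, a uridine-cytidine kinase, at 0.43 ± 0.13, and FUBP3 at 0.38 ± 0.14. All 15 genes had promoter peaks in each K562 library, but all 15 also had one in at least 1 other library, and 8 had one in all 8. No share over all genes stands beside these counts, so they do not set K562 apart. LAMC3, a laminin chain, and QRFP, a neuropeptide, lacked a promoter peak in 3 and 4 of the other 6 libraries.

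Of 13 genes on these chromosomes that act in BCR-ABL1 signalling, 8 could be tested, with 4 higher, 1 lower and a median of 0.35. BCR and CRKL, which lie in the high stretch of chromosome 22, were among the 4. So was TSC1, at 0.45 ± 0.13, whose promoter region also serves GFI1B, an erythroid repressor. JAK2, a cytokine receptor kinase, fell by 0.31 ± 0.07, and CSF2RB, the common receptor chain of IL-3 and GM-CSF, had promoter peaks in GM12878 and HFF1 and in neither K562 library.

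Genes of other cell types on the 2 chromosomes gave values on the lines themselves. Of 6 red cell genes, 4 were tested and 3 were higher, with a median of 0.45, beside 25.8% of all shared regions. STOM, a red cell membrane protein, was at 0.63 ± 0.09 and TMOD1, which caps actin in the red cell skeleton, at 0.46 ± 0.12. GFI1B was the other, but its region is the TSC1 promoter region already counted, so it gives no separate value for a red cell gene. That region had 87 and 70 reads in K562, 105 and 87 in GM12878 and 79 in each HFF1 library. Relative to the library medians, K562 did not lie above all others there. ALAD, an enzyme of haem synthesis, had 0.15 ± 0.06 and was not called. HMOX1, the haem oxygenase gene, had a promoter peak in all 6 other libraries and in neither K562 library. No B-cell gene had a shared promoter region. PAX5 and CD72 had promoter peaks in both GM12878 and both HFF1 libraries and none in K562, and VPREB1, a surrogate light chain that lies in bin 22:22, had 1 in 1 K562 library alone. SYK and CARD9 had promoter peaks in both K562 and both GM12878 libraries, and IGLL1 and IGLL5 in no library. Of 10 fibroblast genes, 6 had promoter peaks in both K562 libraries, COL5A1 in 1 of them, and TNC, FBLN1 and PDGFB in neither. COL15A1 and TIMP3, among the 6, had promoter peaks in every library except those of GM12878. TNC and FBLN1 had none in GM12878 either, and PDGFB had a promoter peak in 1 HFF1 library alone. Of the 4 fibroblast genes that were tested, ROR2 and LGALS1 were higher, at 0.63 ± 0.11 and 0.50 ± 0.09, and COL27A1 fell by 0.31 ± 0.10. Of 7 homeobox genes 2 were tested, and LHX2 fell by 1.29 ± 0.13.

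The promoter regions with the largest rises came mostly from the stretches already described. ZNF280B, a zinc finger gene, led at 1.76 ± 0.12, with 167 and 174 reads in K562 against 15 to 91. BCR followed, and then a second start of PPM1F at 1.58 ± 0.15 and FAM78A. NUP214 gave both of its regions, SEPTIN5 1.42 ± 0.16, DGCR6L 1.39 ± 0.13 and RUSC2 1.36 ± 0.14. SEPTIN5 was not called when regions were ranked by the authors' p-values instead (limma adjusted p = 0.384). RUSC2, on the short arm of chromosome 9 at 9:35489290-35490487, was the exception. It had 78 and 86 reads in K562, 95 and 82 in HFF1, and 11 to 19 in the other 4 libraries, so K562 overlapped with the fibroblasts. The local background differed by 0.73 on the log2 scale at RUSC2 and by 1.73 to 2.57 at the others named here.

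The promoter regions with the largest falls were spread over both chromosomes. KIAA1671, at 22:25110785-25111850, had 16 and 17 reads in K562 against 27 to 89 and fell by 1.91 ± 0.13 (0.266-fold). VLDLR, a lipoprotein receptor, had 19 and 18 reads against 39 to 78 and fell by 1.83 ± 0.13. PALM2AKAP2, EFCAB6, GAS1, a growth arrest gene, and IFT27, a subunit of the transport train of cilia, fell by 1.78, 1.67, 1.63 and 1.59. LHX2, ZDHHC21, TRPM3 and PLGRKT fell by 1.29, 1.26, 1.19 and 1.17. Relative to the library medians, both K562 libraries lay below all others at each of these 10 regions except TRPM3. The local background was lower in K562 at all 10 too, with log2 differences from -1.88 at VLDLR to -0.67 at TRPM3. A background that moved with the pileup was thus not particular to the stretches at BCR and ABL1.

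Each other line was fitted by the same contrast. On chromosome 22, GM12878 had 19 of 34 bins called higher and 6 lower, where 37.1% and 29.9% of all bins were called, and HEK293T had 2 higher and 23 lower, where 41.8% and 30.4% were. HFF1 had 12 higher and 14 lower, where 37.4% and 38.1% were. On chromosome 9, HFF1 had 52 of 94 bins higher and 13 lower, HEK293T 15 and 52, and GM12878 37 and 26. These contrasts share libraries with that of K562, and the values stand beside it without a test of the difference.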

How the data were processed

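Bulk ATAC-seq of 4 human lines, with 2 libraries each, was used. Per the submitters' processing notes, the tools were cutadapt 3.2, Bowtie2 2.4.2, Picard and MACS2 2.2.7.1, and the builds hg38 and mm10. The authors deposited 1 peak list per library, with each peak's fold over background (a ratio), its −log10 p and q, and a score. The pileup and local background at each summit were solved from the deposited fold and −log10 p, and 100% of pileups came out whole within a relative 1e-05.

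Peaks were placed by midpoint in 1 Mb bins. limma 3.58.1 (R 4.3.3), with a trend in the spread, was fitted to log2 of peaks plus 0.5 per autosomal peak, for bins with a mean of at least 5 peaks, and to log2 pileups at regions with a peak in all 8 libraries, with no replicate block. The contrast was K562 minus the mean of the 3 other lines, called at a Benjamini-Hochberg adjusted p under 0.05. Segments were tested by exact permutation. The fits were tested on simulated data.

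Named were BCR and ABL1, the bins within 5 of theirs, up to 5 bins and 10 promoter regions called in each direction with the largest differences, and listed genes. The members and lists were chosen with earlier results of these data known. A promoter peak lay within 1 kb of a start. Replicate numbers were not used to pair libraries. Mouse libraries were not used. Some genes covered by this rule are not reported here.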

Additional observations from a re-analysis of the deposited data

Results flagged for a closer look

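Peaks on contigs of chromosome 22 that have no place in its sequence stood outside every count above. They numbered 19 and 17 in GM12878, 4 and 3 in HEK293T, 16 and 11 in HFF1, and 17 and 13 in K562. All but the second HEK293T library exceeded the 3 that a count of 0 allows. K562 lay within the other lines, and contigs of chromosome 9 held 0 to 2 peaks per library.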

How the results depend on the processing

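Among 1241 values recomputed under another setting, 374 of those that answer a comparison stayed the same. For counts of calls this means a count within a set ratio of the main count, and for segments the same direction and call. No segment passed 0.05 in the main test, so a kept call adds little there. At single bins or regions, 796 values kept their direction and call. The rise of bins 22:19 to 22:22, the bin of ABL1 and the BCR promoter are among these. Leaving out GM12878, a fit with no trend in the spread, and the local background in place of the pileup were chosen after seeing the data. HEK293T, with a median pileup of 16, limits what could be seen in all 8 libraries. Causes were not tested.

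Bins of chromosome 9 called higher numbered 28, 17 in bins of 2 Mb and 17 among the 20000 strongest peaks, where 16 of the 36 lower calls were made. On chromosome 22 the 14 higher calls became 9 in bins of 2 Mb, 8 among the 20000 strongest peaks and 8 to 16 with 1 library left out. The 6 lower calls became 3 in bins of 2 Mb, 10 by covered bases, 10 without HEK293T and 5 to 8 with 1 library left out. Regions of chromosome 9 called higher numbered 88 with summits within 100 bp and 107 to 249 with 1 library left out. Lower calls there numbered 96 to 183 and, from the local background, 249. On chromosome 22, 47 were higher with summits within 100 bp and 79 to 100 with 1 library left out. Lower calls there numbered 76 by rank of −log10 p, 91 to 186 with 1 library left out, and 258 from the local background.

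Small differences changed sign. Bin 22:18 gave -0.18 by covered bases and -0.031 without HEK293T. Bin 22:27 gave 0.034 when centred and -0.14 to 0.056 with 1 library left out. Bin 9:125 gave 0.22 by covered bases, 0.065 when centred, 0.11 without GM12878 and -0.083 to 0.057 with 1 library left out. Bin 9:126 gave 0.16 among the 20000 strongest peaks. Bin 9:134 gave 0.041 when centred and -0.093 to 0.018 with 1 library left out. The share after BCR, lower in K562 by 0.0173 points, gave 0.0141 at −log10 q of at least 5, 0.0777 without GM12878 and -0.0786 to 0.0213 with 1 library left out. Segment signal at distal regions alone was -0.13 on chromosome 9, with or without the 9p stretch, -0.19 before ABL1 and -0.31 on chromosome 22. On chromosome 22 it was -0.021 at promoters alone, -0.22 from the local background, -0.14 without HEK293T and -0.052 to 0.044 with 1 library left out, and before ABL1 it was -0.066 from the local background. The second ABL1 promoter gave 0.060 without GM12878 and 0.93 from the local background.

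With the replicate number as a block, 28 and 36 bins of chromosome 9 and 14 and 6 of chromosome 22 were called, and 196 and 148 regions of chromosome 9 and 89 and 155 of chromosome 22. Deviations of same-numbered libraries correlated at -0.017 to 0.026, so the numbers were not taken as pairs, and no segment can go below p = 0.0625 in an exact permutation test over the 16 splits that keep the block.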
